A study of Mus musculus with 24 samples.

Results

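The AP-1 family described here consists of 8 genes, Fos, Fosb, Fosl2, Jun, Junb, Jund, Atf3 and Batf, which were found by symbol in the annotation of the array. They had 9 probesets of the 22626 on the array that are not controls, 1 for each gene and a second for Jun, among 12393 genes. The signal was measured in thymocytes of NOD and B10 mice, 2 strains that carry the same H2k haplotype, on 24 Affymetrix arrays. The paper describes the NOD strain as a model of autoimmune diabetes and B10 as not prone to autoimmunity. The NOD mice used here had the H2k haplotype on the NOD background, and the mice sorted were healthy. All mice were females of 6 to 8 weeks with the 3A9 T cell receptor (TCR) transgene, which recognizes a peptide of hen egg lysozyme (HEL) on I-Ak, so every group was sorted from a repertoire dominated by 1 receptor and the findings are those of 1 clonotype. S- cells came from TCR insHEL mice, which also carry HEL under the insulin promoter, a promoter that is active in rare cells of the thymic medulla. They were CD4+CD8lowCD69+ cells positive for the clonotype antibody 1G12 and met the antigen during negative selection. S+ cells had the same surface phenotype and came from mice with the TCR alone, where positive selection takes place without HEL. PreS cells were CD4+CD8+ cells without CD69 and 1G12 and had not yet been selected. Each strain had 3 arrays of S- cells, 3 of S+ cells and 6 of PreS cells, of which 3 came from TCR insHEL mice and 3 from TCR mice, and each array held 1 independent pool.

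AP-1 is a dimer of basic leucine zipper proteins. Jun proteins (Jun, Junb, Jund) pair with each other or with Fos proteins (Fos, Fosb, Fosl2), whereas Fos proteins need a Jun partner to bind DNA. Batf and Atf3 are smaller relatives, and Batf pairs with Jun proteins and binds beside Irf4 in T cells. Signalling from the TCR through MAP kinases induces Fos and Junb within minutes as immediate early genes, whose mRNA is short lived, and AP-1 then acts together with NFAT at cytokine genes. Transcription inhibitors were present while the cells were stained for sorting.

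The promoters of Fos, Junb and Batf are shown because these 3 genes were each higher in S- cells than in PreS cells of the B10 strain, and because Fos and Batf lie on the same chromosome. Each window runs from 250 bases before to 50 bases after the annotated start (RefSeq, GRCm38.p6), is printed in the direction of the gene, and lies at chr12:85473640-85473939 on the plus strand for Fos, chr8:84978699-84978998 on the minus strand for Junb and chr12:85686470-85686769 on the plus strand for Batf. Capitals mark TGACGT, the core of the element bound by CREB and ATF factors, and TATAAA, the TATA box.
Fos: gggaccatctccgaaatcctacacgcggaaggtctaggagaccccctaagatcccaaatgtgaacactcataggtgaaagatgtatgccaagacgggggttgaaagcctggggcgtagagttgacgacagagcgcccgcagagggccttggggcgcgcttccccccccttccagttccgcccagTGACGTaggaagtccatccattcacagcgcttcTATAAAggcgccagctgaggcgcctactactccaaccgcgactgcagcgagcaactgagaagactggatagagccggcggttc
Junb: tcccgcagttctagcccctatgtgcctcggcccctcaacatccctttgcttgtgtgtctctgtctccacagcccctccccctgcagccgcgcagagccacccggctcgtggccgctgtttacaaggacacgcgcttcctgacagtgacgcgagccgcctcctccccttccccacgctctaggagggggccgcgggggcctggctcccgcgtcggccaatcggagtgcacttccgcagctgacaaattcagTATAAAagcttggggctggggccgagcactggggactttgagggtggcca
Batf: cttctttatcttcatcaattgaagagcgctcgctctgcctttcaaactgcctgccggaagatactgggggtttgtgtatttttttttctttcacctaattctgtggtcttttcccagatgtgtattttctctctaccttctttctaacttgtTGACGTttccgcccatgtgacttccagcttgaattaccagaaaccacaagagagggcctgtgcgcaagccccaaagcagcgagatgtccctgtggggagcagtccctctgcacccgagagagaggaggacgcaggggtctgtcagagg

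The motif TGACGT, searched on both strands, occurred in 3 of the 8 members' windows (Fos, Batf and Atf3) and in 7.51% of 32851 windows of the same length. It began 66 bases before the start of Fos and 98 bases before that of Batf. TATAAA occurred in Fos and Junb and in 13.6% of all windows. It began 33 bases before the annotated start of Fos, and in Junb it lay on the start itself. The AP-1 element TGACTCA (5.20% of all windows) and the full CREB element TGACGTCA, which contains TGACGT (1.79%), were found in none of the 8, and TGACATCA (3.62%), a variant of the AP-1 element, was found in Jun. These are matches of letters and say nothing of binding.

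Arrays of the same condition correlated at 0.843 to 0.967 over the 12838 probesets kept by the filter given below. Markers of double positive cells followed the labels. Summed signals of Rag1, Rag2, Cd8b1 and Ptcra were 315 to 725 in NOD S- cells, 355 to 926 in NOD S+ cells and 1335 to 2350 in NOD PreS cells, against 317 to 458, 300.2 to 425 and 1891 to 2287 in B10 S-, S+ and PreS cells. Of the markers of selected cells, Ccr7 averaged 624 and 536 in NOD S- and S+ cells against 20.2 in NOD PreS cells, and 403 and 848 in B10 S- and S+ cells against 31 in B10 PreS cells. Cd5 did not follow the label in NOD S+ cells, where it averaged 971, against 1099 in NOD PreS cells. The sum of both was 1024, 981 and 2516 on the NOD S+ arrays and 582 to 1756 (median 1082) on the NOD PreS arrays, so replicates 1 and 2 of NOD S+ lay below the PreS median. Summed signals of 6 macrophage and dendritic cell markers (Lyz2, Csf1r, Itgam, Itgax, Cd68 and Adgre1, with Itgam the lowest) were 518 to 1127 in NOD S+ cells and 160 to 640 in the PreS groups. They were 277 to 509 in NOD S- cells, 225 to 428 in B10 S+ cells and 244 to 1218 in B10 S- cells, where replicate 3 held the highest value. The ratio of the 3' to the 5' Gapdh control probesets, a sign of how much of the 5' end of the transcripts was lost in amplification, was 57.2, 40.9 and 3.63 in the NOD S+ arrays, 29.4 in replicate 1 of B10 S+ and 28.9 in replicate 1 of NOD PreS TCR insHEL, and 2.19 to 16.6 in the other 19. The arrays were hybridized on 9 days. Only part of these days held more than 1 state, so day and state could be separated only in part. The part of these measures in the results was not tested except where a value is given.

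For the tests signals were put on a log2 scale, each array was standardized, and a probeset was kept if it reached a signal of 32 in all 3 arrays of at least 1 of 8 conditions (12838 kept). Of the 8 genes 6 were kept. Fos and Jund passed in all 8 conditions, Junb in 7, Batf in 6, Fosl2 only in B10 S+ and S- cells and Fosb only in NOD S- cells. For Fosl2 and Fosb the filter thus favours the groups in which they are high. Jun, which was just outside the filter with 44.1, 53.3 and 31.9 in NOD S+ cells, and Atf3, with no array above 13.2, were left out of the counts. Signals of different probesets are not compared, since probes differ in brightness. Where groups are said to overlap or not, the share of all probesets that separate likewise is not given, so this only describes the arrays.

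**Figure D1:**
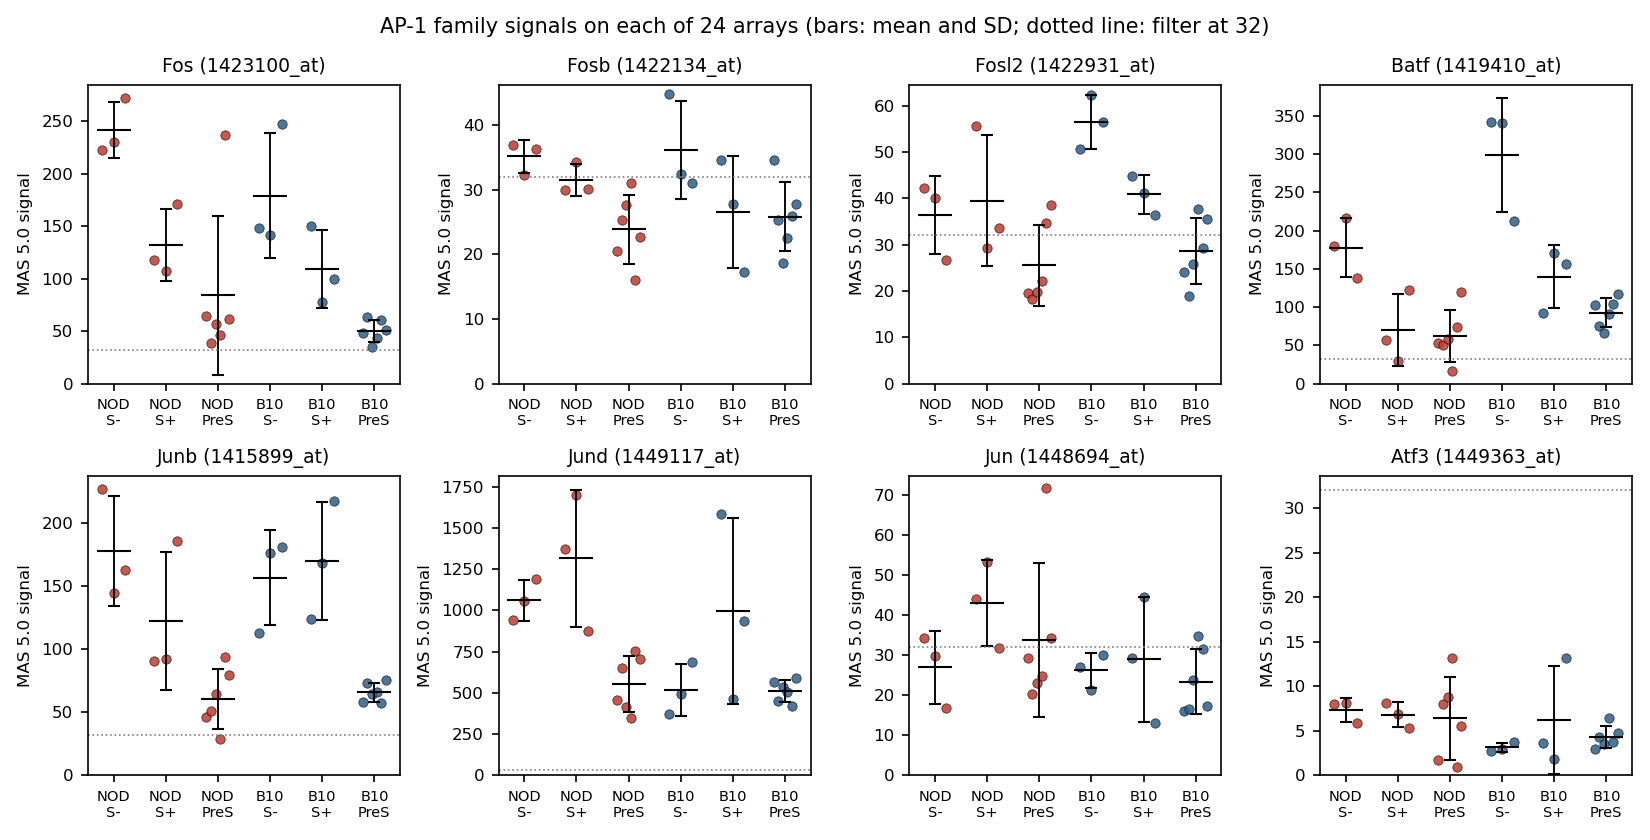
MAS 5.0 signal (linear axis from 0) of the 8 genes on each of 24 arrays, by strain and state, with the mean and SD over arrays as bars and the filter of 32 as a dotted line. Fos and Batf had their highest mean in S- cells of each strain, Junb in both selected states of B10 mice lay above PreS, and 1 NOD PreS array stood at 236.7 for Fos and 71.9 for Jun.

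Fos and Junb were higher in S- cells than in PreS cells of both strains, and Batf and Fosl2 were called higher than in PreS cells only in B10 S- cells. Against PreS cells of the same strain, Fos and Junb were called higher in B10 S+ cells, and Jund in NOD S+ cells. These are calls within a strain, and in the main fit no member was called between the strains or by the interaction term. The Batf log2 fold change against PreS cells was 1.54 in NOD S- cells and 1.58 in B10 S- cells. All p-values below are from limma and were adjusted over the 12838 kept probesets unless called unadjusted, with a threshold of 0.05. In NOD S- cells against PreS cells 2 of 6 members were called, Fos and Junb, both higher (11.2% of all probesets were called). In B10 S- cells against PreS cells 4 of 6 were called, Fos, Junb, Batf and Fosl2, all higher (11.2% of all). Of these, Fosl2 was kept only through B10 S+ and S- cells, and its call was lost without the filter (adjusted p = 0.0861). In NOD S+ cells 1 of 6 was called against PreS cells, Jund, higher (14.8% of all), and in B10 S+ cells 2 of 6, Fos and Junb, both higher (16.8% of all). The median log2 fold change of the 6 members was 1.19 in NOD S- cells and 0.98 in B10 S- cells, against 0.02 and 0.01 for all kept probesets, and it was 0.57 in NOD S+ cells and 0.64 in B10 S+ cells, against 0.02 and 0.04. These comparisons share their PreS arrays within a strain. In sorted pools a higher signal in more of the cells and more RNA per cell cannot be told apart.

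**Figure D2:**
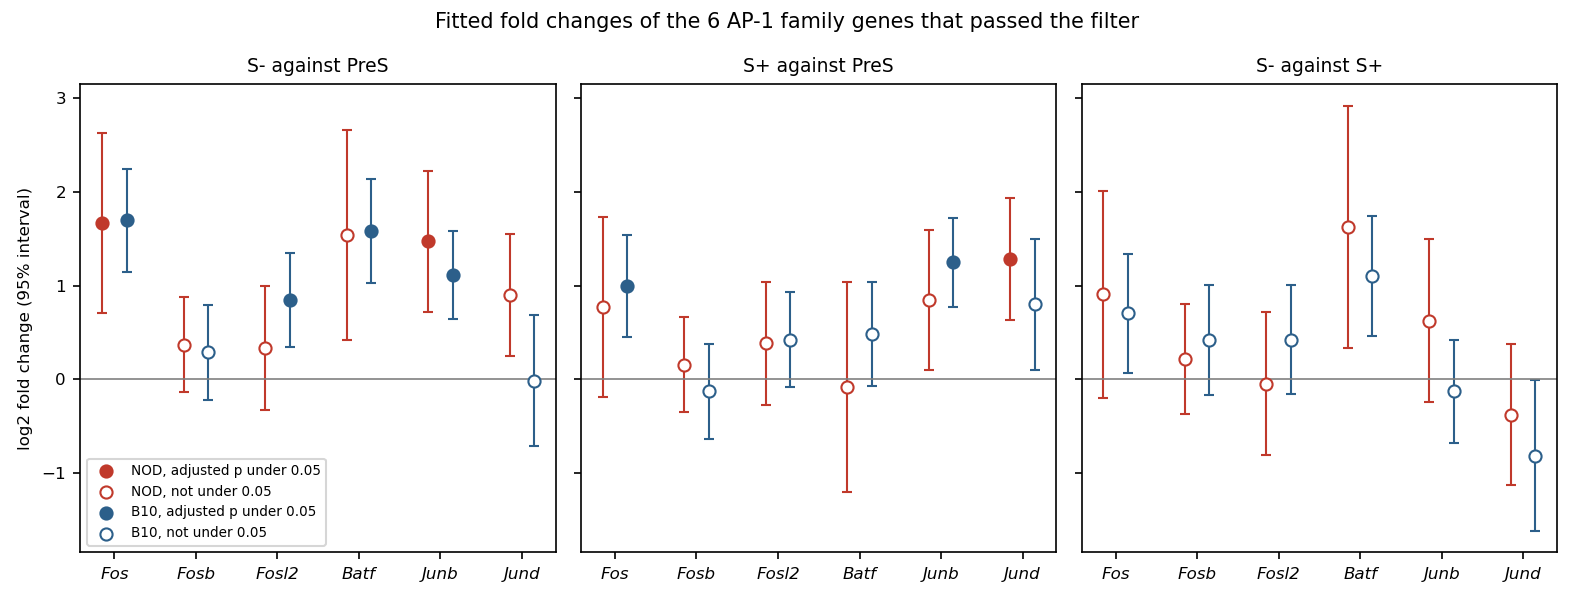
Log2 fold changes with 95% intervals for the 6 genes that passed the filter, in S- cells against PreS cells, S+ cells against PreS cells and S- cells against S+ cells, for NOD (red) and B10 (blue). Filled points had an adjusted p under 0.05, which was the case for 6 points of the S- panel, 3 of the S+ panel and none of the S- against S+ panel.

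Fos, the inducible subunit that gives the family its classical heterodimer, had signals of 222.8, 229.8 and 271.9 in NOD S- cells, 117.8, 107.3 and 171.1 in NOD S+ cells, and 64.8, 38.2, 56.6, 45.9, 236.7 and 61.3 in the 6 NOD PreS arrays. Every S- array was above every S+ array, and both were above 5 of the 6 PreS arrays. The array of 236.7 was replicate 2 of the PreS cells from TCR insHEL mice. The fitted log2 fold change of NOD S- against PreS cells was 1.67 (SE 0.45, adjusted p = 0.0288). This call was lost when any 1 of 6 arrays was left out (S- replicate 1, 2 or 3, PreS TCR replicate 2 or 3, PreS TCR insHEL replicate 3), with adjusted p of 0.0506 to 0.127. It was also lost without the filter (adjusted p = 0.0773) and against only the 3 PreS arrays from TCR insHEL mice (1.27, adjusted p = 0.0909). For NOD S+ against PreS cells it was 0.77 (SE 0.45, adjusted p = 0.264), and without the PreS array of 236.7 it was 1.12 (SE 0.26, adjusted p = 0.0173). In B10 mice Fos stood at 148.5, 141.3 and 247.6 in S- cells, 150.5, 77.9 and 99.7 in S+ cells, and from 34.8 to 63.2 with a median of 49.4 in PreS cells. The selected groups overlapped each other, and neither overlapped PreS. Against PreS cells the log2 fold change was 1.70 in B10 S- cells (SE 0.25, adjusted p = 6.7e-04) and 0.99 in B10 S+ cells (SE 0.25, adjusted p = 0.0154). The S+ call rested on replicate 1, since without it the log2 fold change was 0.73 (adjusted p = 0.0872). On days that held both states the log2 difference between B10 S+ and PreS arrays was 0.64 and 0.65, that between B10 S- and PreS arrays was 1.61, and that between NOD S+ and PreS arrays was 1.34. With hybridization day as a block the B10 values were 1.51 in S- cells (adjusted p = 0.0599) and 0.68 in S+ cells (adjusted p = 0.200).

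Fosb, a second inducible Fos protein, was near the filter in every group. It had 36.9, 32.3 and 36.4 in NOD S- cells, 30.0, 34.4 and 30.1 in NOD S+ cells and at most 31.1 in NOD PreS cells, and 44.9, 32.5 and 31.1 in B10 S- cells, 34.6, 27.9 and 17.3 in B10 S+ cells and 18.7 to 34.7 in B10 PreS cells. In NOD mice the S- arrays did not overlap the PreS arrays, and in B10 mice they did. Fosb was kept only because all NOD S- arrays reached 32, so this separation is partly set by the filter and is no support for a rise. Its log2 fold changes against PreS cells were 0.37 in NOD S- cells and 0.29 in B10 S- cells (adjusted p = 0.340 and 0.492), and none of its comparisons was called.

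Fosl2 encodes Fra-2, a Fos protein without the strong activation domain of Fos. Its signals were 50.6, 62.3 and 56.5 in B10 S- cells, 44.8, 41.2 and 36.5 in B10 S+ cells and 18.9 to 37.8 in B10 PreS cells. All 3 B10 S- arrays were above all S+ and PreS arrays. The log2 fold change of B10 S- against PreS cells was 0.84 (SE 0.23, adjusted p = 0.0329). This call did not hold when any single S- array was left out (adjusted p = 0.0723 to 0.159), without PreS TCR replicate 1 or 3 (0.0608 and 0.0504), or against only the PreS arrays from TCR insHEL mice, which stood at 37.8, 29.3 and 35.6 (log2 fold change 0.54, adjusted p = 0.186). It was also lost without the filter (adjusted p = 0.0861), in 1 fit of all arrays (0.0541) and with the day block (0.30, adjusted p = 0.740). Within the 1 day that held both states the difference was 0.25. In NOD mice Fosl2 had 42.2, 40.1 and 26.7 in S- cells, 55.6, 29.3 and 33.7 in S+ cells and 18.3 to 38.5 in PreS cells. These groups overlapped (log2 fold change of S- against PreS cells 0.33, adjusted p = 0.520). Within PreS cells of both strains Fosl2 was higher in TCR insHEL than in TCR mice, without overlap. The TCR arrays stood at 24.1, 18.9 and 25.8 in B10 mice and at 19.5, 18.3 and 19.8 in NOD mice. The NOD TCR insHEL arrays stood at 22.2, 34.7 and 38.5, and this difference was not tested.

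Batf, which lacks an activation domain and acts with Jun proteins, had its highest signals in B10 S- cells, at 342.3, 341.1 and 213.1. It had 92.4, 170.0 and 156.1 in B10 S+ cells and 66.5 to 117.2 (median 96.8) in B10 PreS cells. The B10 S- arrays were above every other array of that strain, whereas S+ and PreS overlapped. The log2 fold change of B10 S- against PreS cells was 1.58 (SE 0.26, adjusted p = 0.00114), with an adjusted p of at most 0.0483 in all alternatives run. That of B10 S+ against PreS cells was 0.48 (adjusted p = 0.238). In NOD mice Batf had 179.9, 215.8 and 137.7 in S- cells, 56.9, 29.9 and 122.0 in S+ cells and 16.8 to 119.7 (median 56.0) in PreS cells. Again the S- arrays were above all others of the strain, and S+ and PreS overlapped. The spread between NOD arrays was wider, and the log2 fold change of 1.54 (SE 0.52) for S- against PreS cells did not pass the threshold (adjusted p = 0.0749), while it passed in 5 of the alternatives, among them without PreS TCR insHEL replicate 3 (1.77, adjusted p = 0.0430) and without S+ replicate 3 (1.54, adjusted p = 0.0438). The NOD arrays with the lowest Batf signals, 16.8, 29.9, 50.5 and 53.1, had Gapdh ratios of 28.9, 40.9, 16.6 and 5.28.

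Junb, an early induced Jun protein with weaker activating capacity than Jun, was higher in both selected states of B10 mice than in B10 PreS cells. It had 112.9, 176.0 and 180.6 in B10 S- cells, 123.7, 168.0 and 217.5 in B10 S+ cells and 57.4 to 75.3 in B10 PreS cells. Each selected group lay above PreS without overlap, and they overlapped each other. The log2 fold changes against PreS were 1.11 in B10 S- cells (SE 0.22, adjusted p = 0.00421) and 1.25 in B10 S+ cells (SE 0.22, adjusted p = 0.00124). The S+ value was called in every alternative run (adjusted p at most 0.0441), and the S- value in all but the day block (1.20, adjusted p = 0.184). On the days shared by B10 S+ and PreS arrays the differences were 1.82 and 1.20, and on that shared by B10 S- and PreS arrays it was 0.65. NOD S- cells had Junb signals of 227.2, 144.5 and 162.2, NOD S+ cells 90.1, 91.7 and 185.7 and NOD PreS cells 28.7 to 93.4. The NOD S- arrays were above all PreS arrays, and the S+ arrays overlapped both. The log2 fold change of NOD S- against PreS cells was 1.47 (SE 0.35, adjusted p = 0.0158), and it was not called without S- replicate 1 (1.31, adjusted p = 0.0844) or replicate 3 (1.52, adjusted p = 0.0635). That of NOD S+ against PreS cells was 0.85 (SE 0.35, adjusted p = 0.117), and it passed in 1 fit of all arrays (adjusted p = 0.0421) and with the Gapdh ratio as a covariate (1.19, adjusted p = 0.0120).

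Jund, the Jun protein that is present in resting cells, was higher in NOD S+ cells than in PreS cells. It had 940.6, 1055.7 and 1189.8 in NOD S- cells, 1374.7, 1698.9 and 875.8 in NOD S+ cells and 345.1 to 752.7 in NOD PreS cells. Both selected groups were above PreS without overlap. The log2 fold change was 1.28 in NOD S+ cells (SE 0.30, adjusted p = 0.0142) and 0.90 in NOD S- cells (SE 0.30, adjusted p = 0.0734). The S- value passed in 5 alternatives, such as quantile normalization (1.12, adjusted p = 0.0145). On the 1 day shared by NOD S+ and PreS arrays the S+ difference was 1.49. In B10 mice Jund had 372.7, 493.7 and 687.5 in S- cells, 1587.8, 462.8 and 935.3 in S+ cells and 416.3 to 587.9 in PreS cells. The B10 S+ arrays spanned more than the range of the other groups, and their log2 fold change against PreS of 0.80 (SE 0.32) did not pass the threshold (adjusted p = 0.117). Without S+ replicate 2, the array of 462.8, it was 1.27 (adjusted p = 0.00995). For B10 S- against PreS cells the log2 fold change was -0.02 (95% interval -0.72 to 0.68).

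The 3 highest Jund signals, 1698.9, 1587.8 and 1374.7, were on the 3 arrays with the highest Gapdh ratios, 40.9, 29.4 and 57.2. Replicate 1 of NOD PreS TCR insHEL, with the next highest ratio of 28.9, had the lowest Jund signal of all 24 arrays, 345.1. Without these 3 S+ arrays, NOD S+ cells were represented by a single array, taken to vary as the other groups do, and the Jund log2 fold change was 0.63 (SE 0.41, adjusted p = 0.490). The call was also lost without NOD S+ replicate 1 (1.20, adjusted p = 0.0712) or replicate 2 (1.04, adjusted p = 0.0946). The summed myeloid markers were 518 to 1127 on the NOD S+ arrays and 160 to 370 on the NOD PreS arrays, and their part in the Jund values was not tested.

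**Figure D3:**
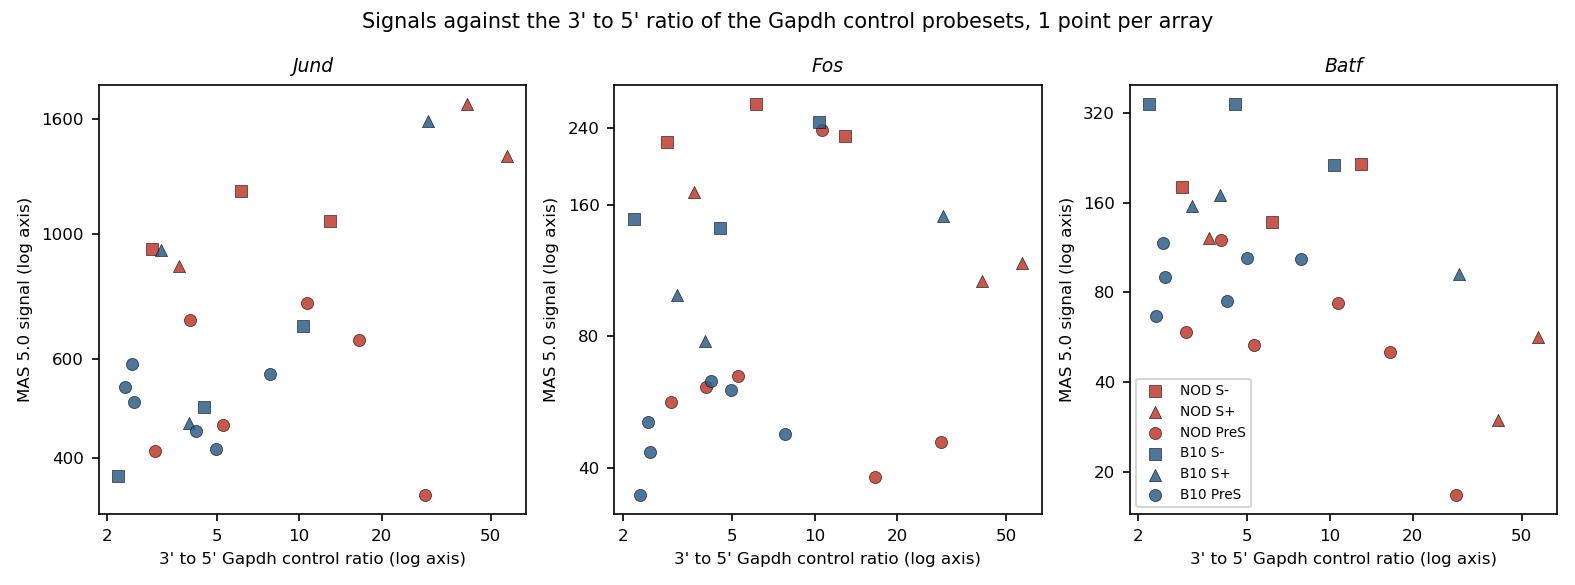
Signals of Jund, Fos and Batf (log axis) against the ratio of the 3' to the 5' Gapdh control probesets (log axis), with 1 point for each of 24 arrays, colour for strain and shape for state. The 3 S+ arrays with ratios of 29.4 to 57.2 held the highest Jund signals, while Fos on these arrays lay between 107.3 and 150.5 and Batf between 29.9 and 92.4.

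Jun, the founding subunit of the family, and Atf3 were below the filter. The brighter Jun probeset had 34.3, 29.9 and 16.8 in NOD S- cells, 44.1, 53.3 and 31.9 in NOD S+ cells and 20.3 to 71.9 in NOD PreS cells, and 27.1, 21.4 and 30.0 in B10 S- cells, 29.2, 44.5 and 13.1 in B10 S+ cells and at most 34.7 in B10 PreS cells. All groups overlapped PreS. The second Jun probeset was at or below 6.3 on all arrays but 2, with 31.9 in NOD PreS TCR insHEL replicate 2 and 15.9 in NOD S+ replicate 2. Atf3, which is induced by stress, lay between 0.9 and 13.2. When the filter was left out, the log2 fold changes of S- against PreS cells for the brighter Jun probeset were -0.46 in NOD mice (SE 0.39) and 0.03 in B10 mice (SE 0.39), and those for Atf3 were 0.40 (SE 0.71) and -0.74 (SE 0.52), with no call.

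The comparison of S- with S+ cells asks what antigen adds at the same surface phenotype. In NOD mice 0 of 6 members and 0% of all probesets were called, with 1 member (Batf) at an unadjusted p under 0.05 (4.40% of all probesets). In B10 mice 0 of 6 members were called and 1.67% of all probesets were, with 3 members (Batf, Fos and Jund) at an unadjusted p under 0.05 (11.7% of all probesets). The t-test of the study's methods, run here with the same adjustment, also called 0 of 6 in each strain. The paper describes no such adjustment and used an F-test followed by contrasts at p under 0.05. By that rule it put Fos in its B10 pattern of genes induced more strongly in negative than in positive selection. Batf had the largest difference of the members in both strains, with a log2 fold change of 1.63 in NOD mice (SE 0.60, 95% interval 0.33 to 2.92, adjusted p = 0.803) and 1.10 in B10 mice (SE 0.30, 0.46 to 1.74, adjusted p = 0.0952). The S- signals were higher than all S+ signals in each strain. Pairs of S- and S+ arrays of the same day differed by 2.06 and 0.49 in NOD mice and by 1.15 and 1.03 in B10 mice. For Fos the difference was 0.90 in NOD mice (SE 0.51, adjusted p = 0.803) and 0.70 in B10 mice (SE 0.29, adjusted p = 0.354), and within days it was 1.03 and 0.33 in NOD mice and 0.66 and 0.96 in B10 mice. For Jund it was -0.38 in NOD mice (SE 0.35, adjusted p = 0.820) and -0.82 in B10 mice (SE 0.38, adjusted p = 0.423). Junb differed by 0.63 in NOD mice and -0.13 in B10 mice, with 95% intervals of -0.24 to 1.49 and -0.68 to 0.41.

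Between the strains 0 of 6 members were called in S- cells (2.32% of all probesets), S+ cells (3.70%) and PreS cells (4.13%). This held for limma and for the methods' t-test with the same adjustment. By limma 2, 1 and 0 members had an unadjusted p under 0.05. Of all probesets 14.6%, 19.0% and 18.3% had such a p, so the S+ and PreS counts of members were at or below the share of all probesets. In S- cells Jund was at 940.6 to 1189.8 in NOD mice and 372.7 to 687.5 in B10 mice (log2 fold change 1.05, SE 0.37, unadjusted p = 0.0099, adjusted p = 0.160), and Fosl2 at 26.7 to 42.2 and 50.6 to 62.3 (-0.67, SE 0.32, unadjusted p = 0.0441, adjusted p = 0.326). Neither pair of groups overlapped, which with 3 arrays on each side is a description and no support for a difference. Fosl2 was kept only through B10 S+ and S- cells, so the filter favours its higher B10 values. In S+ cells Batf was at 29.9 to 122.0 in NOD mice and 92.4 to 170.0 in B10 mice, which overlapped (-1.29, SE 0.50, unadjusted p = 0.0161, adjusted p = 0.161). Without NOD S+ replicate 3, the array of 122.0, it was called (-1.84, SE 0.50, adjusted p = 0.0159), and both arrays that then remained were those of the highest Gapdh ratios. Fos in PreS cells was at 38.2 to 236.7 in NOD mice and 34.8 to 63.2 in B10 mice (0.47, 95% interval -0.16 to 1.11).

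The response to selection was also compared between the strains by an interaction term. For S- against PreS cells 0 of 6 members were called (0.101% of all probesets), for S+ against PreS cells 0 of 6 (0.358%), and for S- against S+ cells 0 of 6 (0.148%). None had an unadjusted p under 0.05 by limma, and the methods' t-test with the same adjustment called none. The log2 fold change of Fos in S- against PreS cells differed by -0.02 between NOD and B10 mice, with a 95% interval of -1.13 to 1.08, and that of Batf by -0.04 (-1.30 to 1.22). For Jund in S- against PreS cells the difference was 0.92 (-0.02 to 1.86, unadjusted p = 0.0549).

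Replicate 2 of the NOD PreS cells from TCR insHEL mice stood apart in several members. It had the highest signal of the 6 NOD PreS arrays for 4 of 8 members, with 236.7 for Fos against 38.2 to 64.8 in the other 5, 71.9 for Jun against 20.3 to 34.2, 93.4 for Junb against 28.7 to 79.1 and 752.7 for Jund against 345.1 to 702.4. The ranks and medians that follow are on the standardized log2 scale. Of 20 immediate early genes, 7 were highest on NOD PreS TCR replicate 1 (21.7% of all kept probesets) and 6 on TCR insHEL replicate 3 (19.6%). NOD PreS TCR insHEL replicate 2 was highest for 5 of these 20 and for 9.20% of all kept probesets. By unstandardized signal this array was highest for fewer of the 20. Its median over the 8 members was 0.72 above the median of the other 5 arrays on the log2 scale. Over the 20 immediate early genes it was 0.29, the highest of the 6 arrays, with -0.39 to 0.23 for the others. It was the only array of its hybridization day, and array and day cannot be told apart. Its Gapdh ratio was 10.7. Summed signals of the neutrophil markers S100a8, S100a9, Ngp and Camp were 1220 on this array and 56.6 to 733 on the other 5. They reached 3401 on B10 PreS TCR insHEL replicate 2, where Fos stood at 60.2. The part of these markers in the values was not tested.

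**Figure D4:**
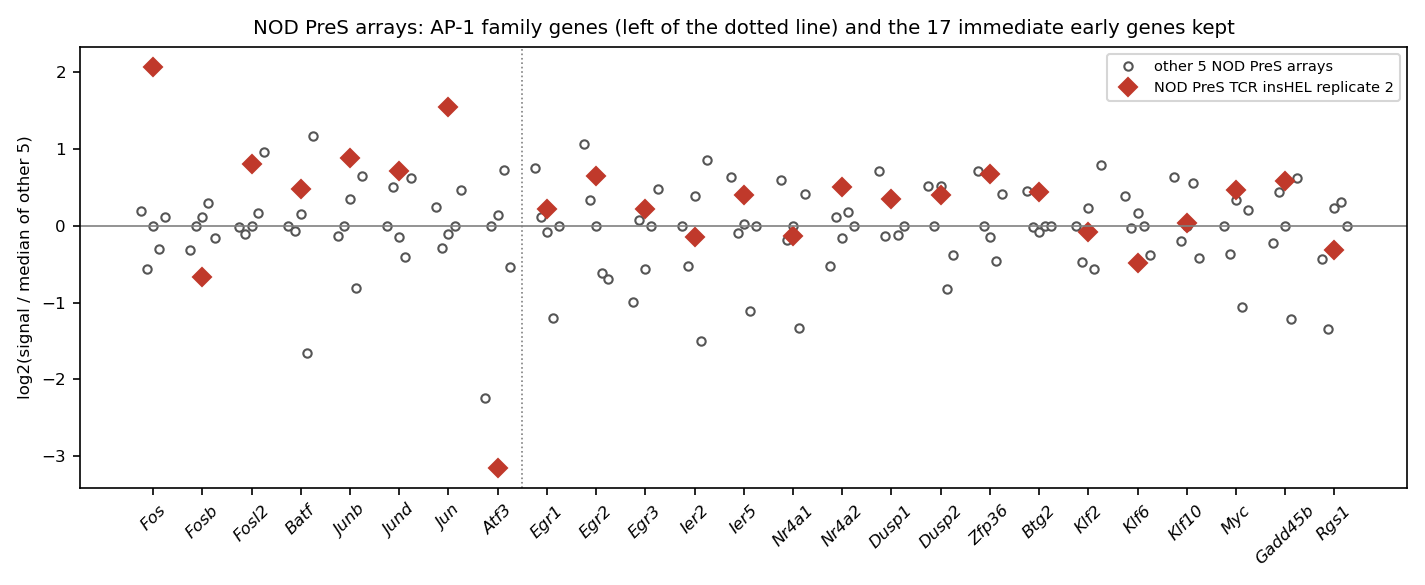
Log2 ratio of the signal to the median of the other 5 arrays for NOD PreS TCR insHEL replicate 2 (red diamonds) and for these other 5 NOD PreS arrays (open circles), for the 8 AP-1 family genes and the 17 immediate early genes that passed the filter. The diamond is the highest point for Fos, Jun, Junb and Jund, and lies within the circles for most immediate early genes. Signals here were not standardized, unlike the values ranked in the text.

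Across the 24 arrays the 6 kept members did not follow 1 pattern. Given as descriptions, over arrays that share strain, state and amplification, Pearson's r was 0.74 between Fos and Junb, 0.71 between Junb and Batf, 0.62 between Batf and Fosl2, 0.50 between Fos and Jund, 0.45 between Fos and Batf and -0.14 between Batf and Jund. Fosb had r between -0.06 and 0.14 with the others, at signals near the filter. The kept genes whose log2 values followed each member most closely over the 24 arrays were Bcl2l11 (r = 0.83), which encodes the cell death protein Bim, Arhgap20 (0.83) and the prostaglandin receptor gene Ptger4 (0.83) for Fos. They were Uba7 (0.92), Itgb7 (0.92), an integrin chain, and Anxa6 (0.92) for Junb. For Batf they were Cib1 (0.91), Adar (0.87), which edits double-stranded RNA, and H2-D1 (0.86), and for Jund Faap20 (0.89), Cdipt (0.88) and Ncdn (0.86). For Fosl2 they were the chemokine gene Ccl4 (0.80), Krt32 (0.77) and Cotl1 (0.76), and for Fosb the ligand of Tnfrsf4, Tnfsf4 (0.73), Rpp30 (0.68) and Mapre2 (0.65).

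Other immediate early genes are induced by TCR signals along with Fos. The list of them, and the lists below, were written with earlier results of these data known, so their counts are descriptions and no test. Of 17 tested, 9 were higher in NOD S- cells and 9 higher and 1 lower in NOD S+ cells than in PreS cells, and 10 and 9 were higher in B10 S- and S+ cells. The other 7 or 8 did not pass. Of all probesets 5.51% were called higher in NOD S- cells, 6.13% in NOD S+ cells, 4.42% in B10 S- cells and 7.37% in B10 S+ cells. The median log2 fold change of the 17 was 1.08, 0.91, 1.34 and 0.75 in these 4 comparisons. The largest rises in S- cells were those of Gadd45b, a stress-response gene upstream of MAP kinases, with 4.92 in NOD mice (adjusted p = 8.3e-06) and 5.63 in B10 mice (adjusted p = 3.6e-07), and of Nr4a1, a nuclear receptor that marks TCR signalling, with 3.72 (adjusted p = 2.3e-05) and 3.44 (adjusted p = 5.5e-06). The gene that was lower in NOD S+ cells was Btg2, an inhibitor of proliferation (-0.88, adjusted p = 0.0398). Gadd45b was the 1 gene of the list called between S- and S+ cells, and only in B10 mice (2.75, adjusted p = 9.7e-04), which is not shown to differ from NOD mice, since no gene of the list was called by the interaction term.

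Among kinases and ternary complex factors upstream of Fos and Jun, 17 were tested. In NOD S- cells and in NOD S+ cells 4 were higher than in PreS cells, with the largest changes in Elk3, Mef2d and Map2k1, and none was lower. In B10 mice 1 was higher in S- cells, Elk3, and 3 in S+ cells, Elk3, Map2k1 and Prkcq. The share in B10 S- cells, 5.88%, was near the 4.42% of all probesets called higher there, and in B10 S+ cells the 3 were 17.6%, against 7.37% called higher and 16.8% called in either direction. Elk3, a ternary complex factor that binds with Srf at promoters such as that of Fos, was thus called in all 4, with log2 fold changes of 1.14 and 1.25 in NOD S- and S+ cells and of 1.06 and 1.09 in B10 S- and S+ cells. Of 15 other genes for AP-1, ATF and related leucine zipper proteins, Bach2, a repressor that competes for AP-1 sites, had the largest rise in each, from 4.05 in B10 S- cells to 5.94 in NOD S- cells. Crem, a regulator at CREB elements, was higher in B10 S- cells (1.94, adjusted p = 1.0e-04) and S+ cells (1.15, adjusted p = 0.00279), Ddit3 was higher in B10 S+ cells (1.11), and Bach1 was lower in B10 S- cells (-0.91, adjusted p = 0.0459). No other gene of this list was called in these comparisons, its 1 call in each NOD comparison was 6.67% of the genes tested, near the share of all probesets called higher, and its median log2 fold change lay between -0.11 and 0.12.

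Of the genes that T cells are known to control through AP-1 sites 15 were tested, and 6 to 9 of them passed as higher in each comparison with PreS cells, against the shares of all probesets given above. Of these 15, 8 were higher in NOD S- cells and 6 in NOD S+ cells than in PreS cells, and 9 in B10 S- cells, none of them lower in these 3. In B10 S+ cells 8 were higher and 1 was lower, Il2ra, the alpha chain of the interleukin 2 receptor (-2.29, adjusted p = 3.4e-06). The largest rises in S- cells were those of Irf4, the partner of Batf at composite elements, with 6.36 in NOD mice (adjusted p = 5.9e-07) and 4.70 in B10 mice (adjusted p = 1.2e-04), of Ccnd2 with 5.10 in NOD mice, and of Tnfrsf9, a costimulatory receptor, with 4.13 in NOD mice and 4.95 in B10 mice. Between S- and S+ cells 4 were called in B10 mice, all higher in S- cells, with the largest in the chemokine gene Xcl1 (3.48, adjusted p = 5.0e-04), Il2ra (2.18, adjusted p = 3.0e-04) and Tnfrsf9 (1.91, adjusted p = 0.0434), and 0 in NOD mice, where limma called no probeset (565 had an unadjusted p under 0.05). By the interaction term Il2ra differed between the strains in S+ against PreS cells (1.80, adjusted p = 0.0185), and its level in PreS cells was lower in NOD than in B10 mice (-1.70, adjusted p = 4.6e-06).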

How the data were processed

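RNA of each sorted pool went through 2 rounds of amplification, and all arrays were of 1 lot. The authors scaled each array to a trimmed mean of 150 in MAS 5.0 and deposited 1 linear signal for each of 22690 probesets and 24 arrays. Other deposited files describe the scans, and only their hybridization days were used. Probe intensities and present calls were not used here.

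Here the 64 controls were taken out and 33 signals of 0 became 0.1. Log2 values of each array were standardized, following the study's methods, and returned to 1 shared scale. The filter, a signal of 32 in all 3 arrays of 1 of the 8 conditions, replaced present calls. Names came from the platform annotation (20380 probesets with 1 symbol, 691 with several, 1555 with none). A gene was represented by its probeset of highest mean signal.

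States were compared with limma 3.58.1 in R 4.3.3 within each strain (12 arrays, PreS groups merged), and strains and interactions in 1 fit of 24 arrays, with Benjamini-Hochberg adjustment. The fit was tested on simulated data. Replicates are independent pools, and the number of arrays limits precision. Every member is named. Other genes named are those of 4 lists written from general knowledge that passed the threshold (up to 3 on each side of a list), and the 3 most correlated with each member. The members and the lists were chosen with earlier results of these data known. Python 3.11.15 drew the figures and searched the promoters. Alternatives were the methods' t-test, scaling without standardization, quantile normalization, flooring signals at 16, other filters (none, or a minimum of 64), replicate or day blocks, a single fit of both strains, S cells set only against PreS cells of mice with the same transgenes, and each array left out. The Gapdh ratio as a covariate, and a fit without the 3 arrays in which it was highest, were chosen after seeing the data.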

Additional observations from a re-analysis of the deposited data

Results flagged for a closer look

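Of 18 groups of 6 PreS arrays tested for a member (9 probesets in 2 strains), 3 held an array farther from the others than Dixon's 95% limit allows. For normally distributed values chance flags about 1 in 20 such groups. The test was run on linear signals, for which this rate need not hold. All 3 were the same array, NOD PreS TCR insHEL replicate 2, with 236.7 for Fos, 71.9 for the brighter Jun probeset and 31.9 for the second Jun probeset. The 3 are not independent, since they come from 1 pool. Without this array the log2 fold change of Fos in NOD S- against PreS cells kept its call, and that in NOD S+ against PreS cells passed the threshold (1.12, adjusted p = 0.0173).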

How the results depend on the processing

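No call of a member changed its direction in any alternative. Of the planned values of single members 1883 kept their side of the threshold, 31 lost it and 12 gained it, and of the values added later 139 kept it, 2 lost it and 3 gained it. Of 6 members, the count called in B10 S+ against PreS cells, 2, became 1 with hybridization day as a block, in 1 fit of all 24 arrays, and without the 3 arrays of the highest 3' to 5' ratio. The count in B10 S- against PreS cells, 4, became 1 with the day block. It became 3 without the filter, with a minimum of 64, with the replicate block, in 1 fit of all arrays and against PreS arrays of the same mice. With the minimum of 64 only 4 members were tested. In NOD S+ against PreS cells the count of 1 became 0 with the day block and without the 3 arrays of highest ratio, and 2 in 1 fit of all arrays and with the ratio as a covariate. In NOD S- against PreS cells the count of 2 became 1 with the methods' t-test, without the filter and against PreS arrays of the same mice. It became 0 with the day block, and 4 with a floor of 16 and with the ratio as a covariate. With MAS 5.0 scaling only, with quantile normalization and in 1 fit of all arrays it became 3. The day block left few degrees of freedom, and in NOD mice it called 5 and 0 of all probesets in these 2 comparisons, so it bears little on single genes there. The cause of these changes was not tested. With 1 array left out at a time the count ran from 1 to 3 in B10 S+ cells, 3 to 4 in B10 S- cells, 0 to 2 in NOD S+ cells and 0 to 4 in NOD S- cells against PreS cells, and from 0 to 1 for NOD against B10 S+ cells (without NOD S+ replicate 3).

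Replicate number as a block called 3 in place of 4 members in B10 S- against PreS cells (Fosl2, adjusted p = 0.0501) and changed no other count, which stayed at 2 in B10 S+, 1 in NOD S+ and 2 in NOD S- against PreS cells, and at 0 in the other comparisons. The numbers were not taken as pairs: deviations of arrays with the same number had a mean correlation of 0.0356 (lowest -0.324), and 9 of 24 arrays correlated best with their own number. With MAS 5.0 scaling only, the median log2 fold change of all kept probesets was 0.16 in NOD S+ and 0.18 in NOD S- cells against PreS cells (0.11 in B10 S+ cells), and the share of higher among called probesets was 57.0% and 63.3% in these NOD comparisons (41.4% and 49.3% after standardization) and 50.8% in B10 S- cells (39.4%). Jun has 2 probesets, neither of which passed the filter, so a choice between them changed no count. Another background correction was not run, since the signals already carry one.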
